A study of Mus musculus with 912 samples.

Results

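Potassium channel genes were followed across cell types, exposure to a new environment (NE) and FOS state in single nuclei of the mouse hippocampus. Every gene whose symbol starts with Kcn was taken from the deposited tables. A gene was kept if it was above 1 on the log2(TPM+1) scale in at least 5% of the nuclei that had 4000 or more genes above 1. TPM is a transcript level scaled by gene length and library size, and all levels below are means of log2(TPM+1) over the nuclei of one mouse. Of 99 Kcn genes, 58 were kept, out of 40221 genes in the log2 tables. The rule read detection over all nuclei together, so that a gene high in one cell type alone could pass through that type. Kcnmb4os2 (5.250% of nuclei) and Kcnk10 (5.128%) lay just inside it, and Kcnk4 (4.274%) and Kcna3 (4.151%) just outside.

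The nuclei came from the hippocampus of female C57BL6 mice and were sorted one to a well by staining for PROX1, CTIP2 and FOS protein, together with NEUN in the first cohort or ARC in the later ones. Each became a Smart-seq2 library, and 783 of 912 nuclei were used here. Homecage (HC) mice were not exposed and gave FOS- nuclei (90 nuclei from 6 mice aged 7.75 to 9.0 weeks). Mice taken 1 h after a single NE visit gave FOS+ and FOS- nuclei (213 nuclei, 5 mice, 8.7 to 9.0 weeks). ARC+FOS- nuclei of the dentate gyrus (DG) were taken 4 h (68 nuclei, 2 mice, 7.75 to 9.0 weeks) or 5 h (59 nuclei, 4 mice, 8.7 to 8.85 weeks) after the visit. FOS protein is gone by then while ARC protein remains, so that ARC marks a nucleus active during the visit. Other mice visited environment A, rested in the homecage for 4 h, and then visited either A again (A>A, 259 nuclei, 8 mice, 7.75 to 9.0 weeks) or a different environment C (A>C, 94 nuclei, 4 mice, 8.7 to 9.0 weeks). Their DG nuclei were taken 1 h after the second visit as ARC+FOS- or ARC+FOS+.

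Total counts per nucleus ran from 142275 to 5885216, with a median of 1251690. The median per nucleus was 1042313 in the HC and 1 h tables and 1655208 in the tables of the later exposures, which hold other dates and other mice and were normalized separately. Exposure and table therefore cannot be told apart where HC is compared with 4 h or 5 h. The DG nuclei at 1 h, both FOS+ and FOS-, came from 1 mouse. In HC, 2 mice gave at least 2 DG nuclei and entered the tests. In A>A, mice 24 to 27 gave both FOS+ and FOS- nuclei, mice 15 and 16 gave FOS+ alone and mice 19 and 20 FOS- alone. In A>C the FOS+ nuclei were of mice 13 and 14 and the FOS- nuclei of mice 11 and 12.

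Cell types carry the authors' labels, which were assigned from these same transcriptomes with Kcnc2 among the genes used. Differences between types are thus not fully independent of the labels, and for Kcnc2 they are a description alone. In FOS- nuclei the summed level of each type's 3 markers was highest in that type among the 5 types compared, with exceptions among single markers and in FOS+ nuclei. Outside those types, the subiculum markers summed to 11.29 in the HC nuclei labelled Th (thalamus), against 8.24 in subiculum. Prox1, C1ql2 and Dock10 summed to 17.38 in DG nuclei and to 2.07 or less in CA1, CA3 and subiculum. VIP nuclei shared Prox1 (3.54). Vip itself averaged 8.14 over the 5 VIP mice, of which 1 was at 0.00, and was 0.00 in the other 4 types. Cck, on the same list, was lower in VIP (5.00) than in CA1 (10.67). In FOS+ nuclei at 1 h the CA1 markers summed to 6.21 in CA1 and to 9.74 in subiculum, and the CA3 markers to 11.96 in CA1. Oligodendrocyte transcripts were present, with Mbp, the most abundant of the 3 followed, at 4.52 in DG. Their part in the results was not tested.

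Potassium channels set how a neuron returns to rest after a spike and how easily it fires again. Voltage-gated Kv channels shape the spike and its spacing, two-pore channels carry a leak current, inward rectifiers hold the resting potential, and calcium-activated channels produce the afterhyperpolarization. Auxiliary subunits alter the traffic and gating of the pore-forming ones. DG granule cells are known for sparse firing, and fast-spiking interneurons for Kv3 channels that close quickly.

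The 58 genes covered every subfamily. All 4 Kv3 genes, 3 of 3 Kv4 and 2 of 2 Kv2 genes were kept, as were 3 of 8 Kv1, 3 of 5 Kv7, 3 of 8 of the EAG, ERG and ELK families, and 6 of 10 silent Kv subunits. Those subunits form no channel alone and modify Kv2. Of the other classes, 9 of 15 inward rectifiers, 6 of 14 two-pore genes, 5 of 8 calcium- or sodium-activated genes, 10 of 17 auxiliary subunits and 4 of 5 RNA genes were kept. The class of RNA genes was led by Kcnq1ot1, a long noncoding RNA from an intron of Kcnq1, which was above 1 in 100% of nuclei.

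Averaged over DG, CA1 and VIP, the channel genes with high levels in FOS- nuclei included M-current genes of the Kv7 family, which restrain repetitive firing. Kcnq5 averaged 4.48 and Kcnq3 4.14. Kcnn2, a small-conductance calcium-activated (SK) channel, was among them at 4.47, and Kcnma1, the large-conductance BK channel, was at 3.60. Leading genes of other classes were Kcnab1 (3.66) and Kcnip4 (3.65) among auxiliary subunits, Kcnj3 (3.52) and Kcnj6 (3.07) among inward rectifiers, Kcnh7 (3.20) and Kcnh1 (1.13) in the ERG and EAG families, and Kcnc1 (3.01) and Kcnc2 (2.11) in Kv3. Others were Kcna1 (2.78) and Kcna4 (1.96) in Kv1, Kcnd3 (2.70) and Kcnd2 (2.61) in Kv4, and Kcnk1 (2.57) and Kcnk6 (1.81) among two-pore genes. The Kv2 gene Kcnb2 averaged 1.86. Silent subunits were low, with Kcnf1 at 1.05 and Kcnv1 at 1.00. Among RNA genes Kcnq1ot1 averaged 5.29 and the next, Kcnd3os, 0.49.

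**Figure D1:**
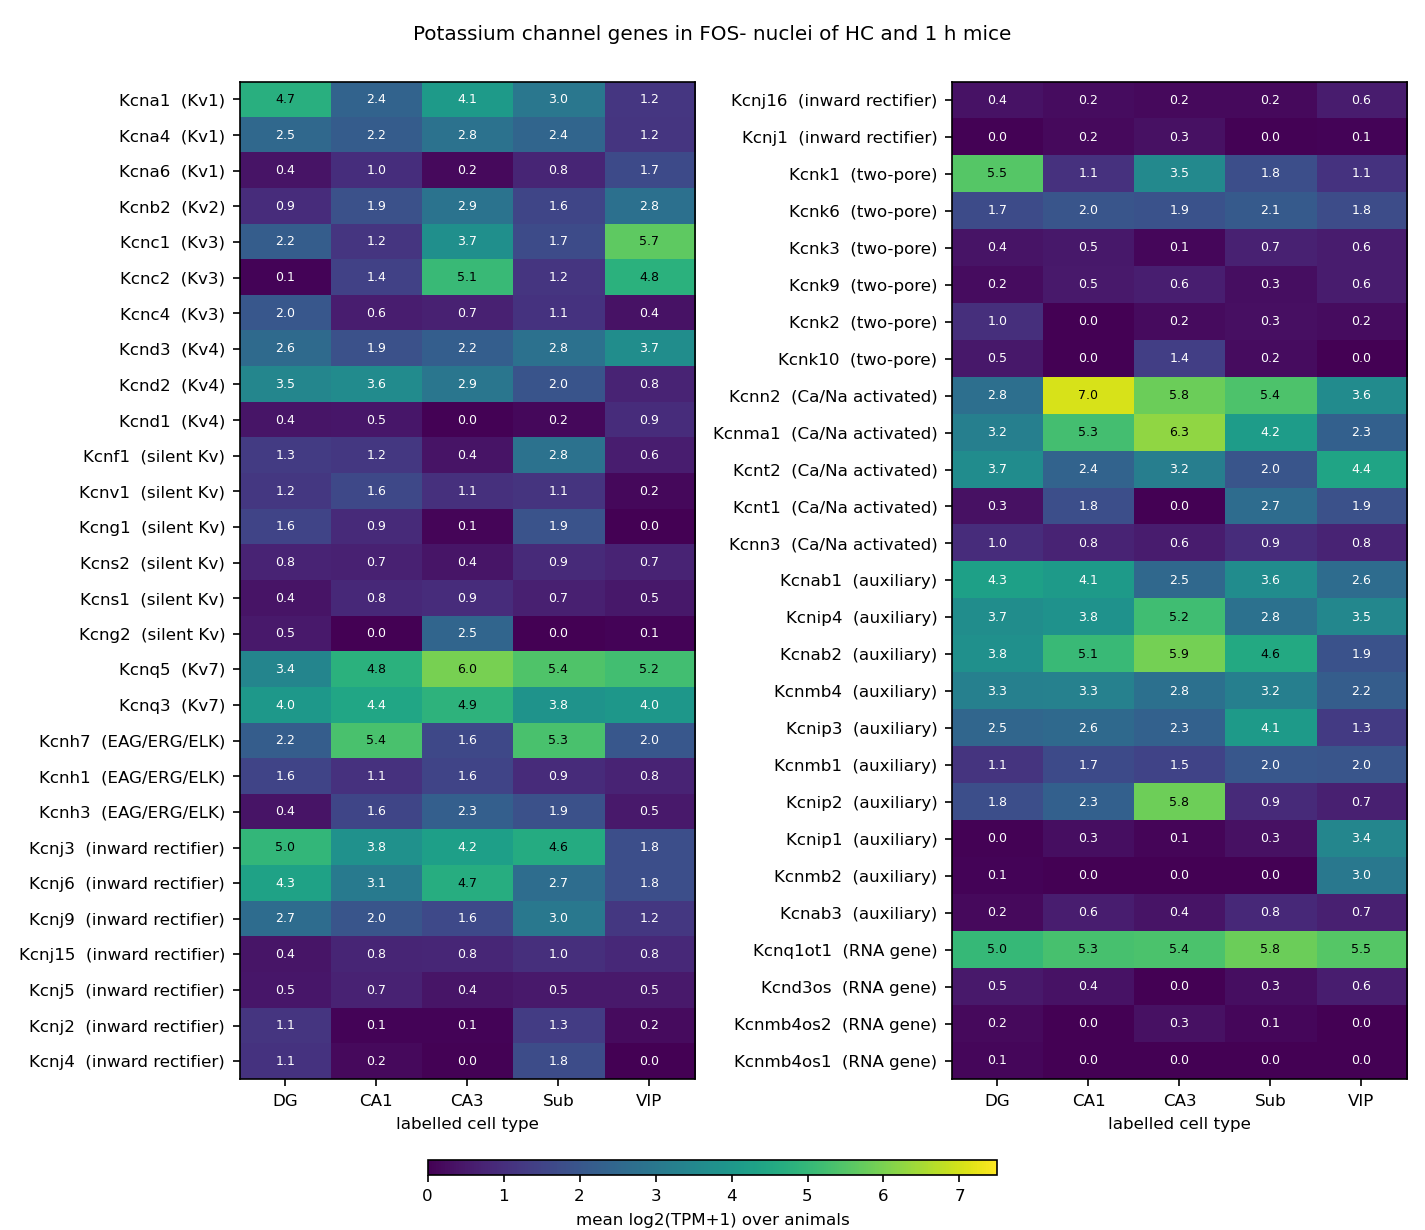
Mean log2(TPM+1) of 55 of the 58 genes (rows, by subfamily) in FOS- nuclei of 5 cell types (columns), averaged over mice. Kcnq3, Kcnq5 and Kcnq1ot1 are at 3.42 or above in every type, while Kcnk1 stands out in DG (5.52), Kcnn2 in CA1 (7.05), Kcnip2 in CA3 (5.84) and Kcnmb2 in VIP (3.01).

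How the levels differed between types was asked in FOS- nuclei of HC and 1 h mice, with 3 mice in DG, 6 in CA1, 3 in CA3, 5 in subiculum and 5 in VIP. Each mouse gave 5 to 27 nuclei in DG, 3 to 13 in CA1, 2 to 5 in CA3, 3 to 5 in subiculum and 2 to 15 in VIP. Of the 58 genes, 23 had type means spanning more than 2 and 18 had means within 1 of each other. The highest mean fell in CA3 for 19 genes (32.8%, against 40.3% of 15731 genes detected in these types), in subiculum for 16 (27.6%, against 20.2%), in VIP for 9 (15.5%, against 12.1%), in DG for 8 (13.8%, against 11.6%) and in CA1 for 6 (10.3%, against 15.8%). The median nucleus had 7777 genes above 1 in CA3 and between 5886 and 6932 in the other types, and its part in this order was not tested. By level, a leak channel stood out in DG, an SK channel in CA1, a Kv4 partner in CA3, and a fast Kv3 channel with auxiliary subunits in VIP nuclei.

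Kcnk1 encodes TWIK-1, a two-pore leak channel that passes little current. Its level in the 3 DG mice with at least 2 nuclei was 3.72, 4.98 and 7.86. In CA1 it ran from 0.13 through a median of 0.84 to 2.13, and in VIP it was 0.00, 0.32, 0.90, 1.82 and 2.51. None of these DG mice overlapped with a CA1 or VIP mouse, though a further DG mouse with 1 nucleus was at 0.00 and another at 7.62, whereas CA3 mice (0.61, 3.76 and 6.25) and subiculum mice (0.00, 0.25, 2.14, 2.46 and 4.22) reached into the DG range. On summed counts the DG against CA1 log2 fold change was 4.74 (SE 1.91), which did not pass edgeR's test over all genes (adjusted p = 0.53). The limma test on the per-mouse levels gave a difference of 4.17 (adjusted p = 0.036).

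Kcnn2 showed the opposite order. This gene encodes SK2, which carries the medium afterhyperpolarization of pyramidal cells. The level in CA1 ran from 5.66 to 8.54 with a median of 7.31, against 2.29, 2.5 and 3.46 in DG and 1.10, 1.71, 4.74, 5.18 and 5.36 in VIP. DG and VIP mice all lay below the lowest CA1 mouse. The edgeR log2 fold change of DG against CA1 was -2.35 (SE 0.95, adjusted p = 0.53), and the limma differences of -4.17 in DG and -3.51 in VIP passed its threshold. The means of CA3 (5.82 ± 0.64, SD, n = 3) and subiculum (5.41 ± 1.70, n = 5) lay between those of CA1 and VIP.

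Kcnh7, an ERG channel active near the resting potential, was at 5.36 ± 2.26 (SD, n = 6) in CA1 and 5.35 ± 1.18 (n = 5) in subiculum. In DG it was at 2.22 ± 0.69 (n = 3), in VIP at 2.03 ± 0.87 (n = 5) and in CA3 at 1.63 ± 1.57 (n = 3). CA1 mice spread from 2.45 to 8.42 and so overlapped with CA3, DG and VIP.

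VIP nuclei stood apart from CA1 in a Kv3 gene and in auxiliary subunits. Kcnc1 encodes Kv3.1, a channel of fast-spiking neurons, and was at 3.15, 4.51, 5.93, 5.95 and 8.69 in VIP against at most 2.53 in CA1. Kcnip1, a calcium-binding partner of Kv4, was at 1.98, 2.18, 3.48, 4.15 and 5.39 in VIP and at most 1.35 in the other 4 types compared. Kcnmb2, an auxiliary subunit of BK channels, was at 1.85, 2.93, 3.19, 3.41 and 3.66 in VIP and was listed at 0.00 in every CA1, CA3 and subiculum mouse. The VIP mice did not overlap with CA1 for any of these. Only 1 DG mouse had Kcnmb2 above 0, at 0.22. Outside the types compared, Kcnmb2 averaged 4.66 over 8 Pvalb and 4.08 over 12 Ivy nuclei, which are other interneurons, and Kcnip1 1.89 and 4.03. The limma difference for Kcnc1 was 4.48, past the threshold, while edgeR gave an adjusted p of 0.30. Kcnip1 was above 1 in 60% of VIP nuclei and in at most 6.84% in the other 4 types, and Kcnmb2 in 51.3% and at most 1.23% (means over mice). Over all nuclei they were above 1 in 8.425% and 6.349%, close to the 5% limit, so they were among the genes followed largely through interneurons and their VIP values are a description.

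Kcnc2, the Kv3.2 gene that the labels used, averaged 4.80 ± 1.30 (SD, n = 5) in VIP, 5.09 ± 0.98 (n = 3) in CA3, 1.44 ± 1.27 (n = 6) in CA1 and 0.08 ± 0.13 (n = 3) in DG.

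In CA3 the Kv4 partner Kcnip2 was at 3.92, 6.76 and 6.85, above the CA1 range of 0.56 to 3.74. Kcng2, a silent subunit, was at 0.10, 2.57 and 4.69 in CA3, and its highest CA1 mouse was at 0.08. Kcnip2 passed limma's test, with a difference of 3.43, and was not called by edgeR or DESeq2. Kcng2 was above 1 in 7.326% of all nuclei, and in 46.7% in CA3, 17.2% in DG and at most 1.28% in the other 3 types, so its values are likewise a description. Kcng2 (0.23, 0.63 and 0.70) and the mechanosensitive leak channel Kcnk2 (0.46, 1.00 and 1.60) were also present in the 3 DG mice, against a highest CA1 value of 0.05 for Kcnk2. Kcna1, the Kv1.1 gene, was at 4.33, 4.55 and 5.31 in DG and between 0.47 and 4.30 in CA1.

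**Figure D2:**
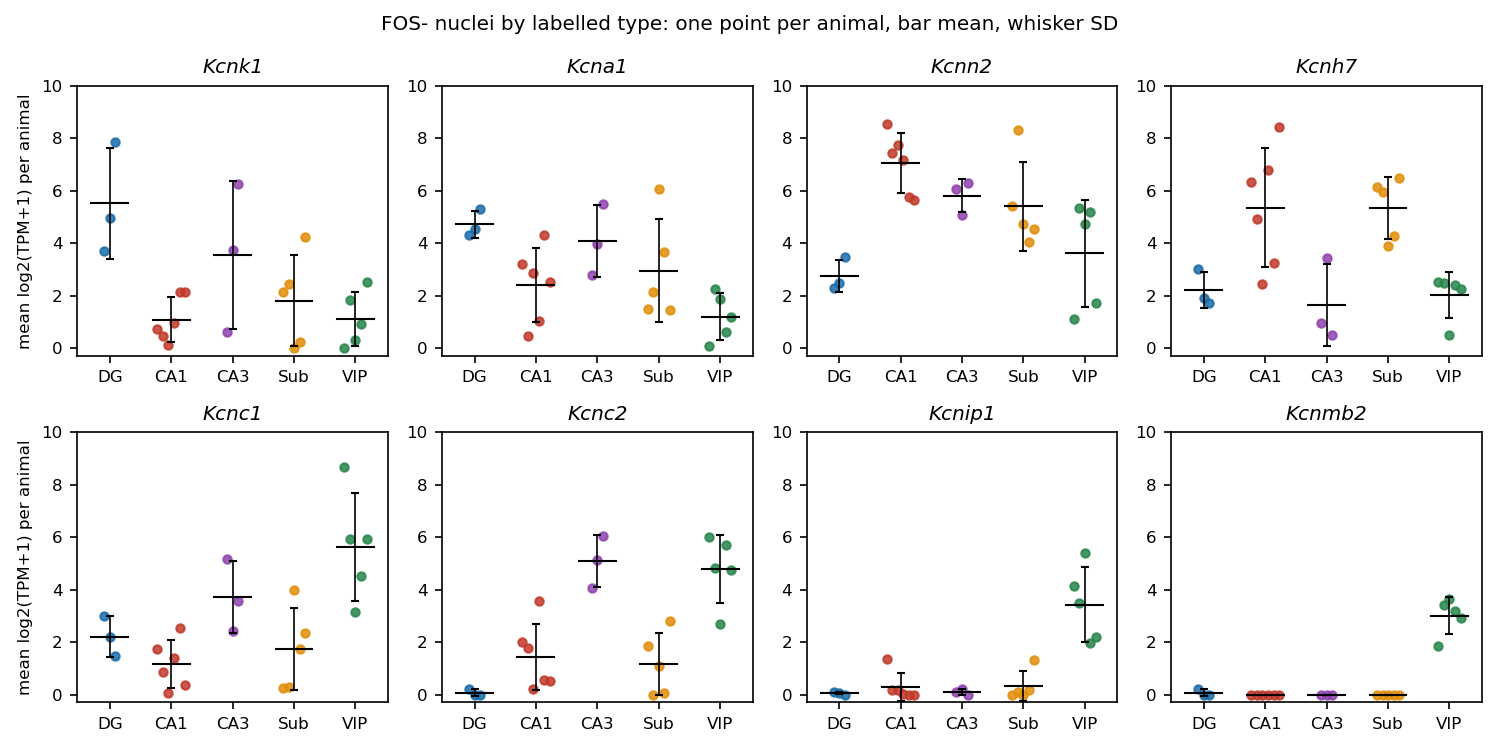
Level of genes by cell type in FOS- nuclei, one point per mouse (mean log2(TPM+1)), with the mean of each type as a bar and the SD as a whisker. The mean of Kcnk1 is highest in DG (mice from 3.72 to 7.86, with CA3 and subiculum mice reaching into that range), that of Kcnn2 in CA1 (5.66 to 8.54) and Kcnmb2, which entered the set largely through interneuron nuclei, is above 1 in VIP mice alone of these 5 types (1.85 to 3.66).

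Counts of genes called were small in the type comparisons, and the 4 comparisons share the CA1 mice. They include genes such as Kcnmb2, Kcnip1 and Kcng2 that entered largely through one or a few types, and are a description. For DG against CA1, edgeR called 0 of 54 genes tested, where it called 0.174% of all genes. Unadjusted p fell under 0.05 for 9 of them (8.16% of all genes), DESeq2 called 5 (2.59%) and limma 2 of 55 (0.666%). For VIP, edgeR called 0 of 54 (0.57%), with 9 at an unadjusted p under 0.05 (12.6%), and DESeq2 called 6 (5.89%) and limma 7 (1.9%). For CA3, edgeR called 0 of 54 (0% of all genes), with 5 at an unadjusted p under 0.05 (6.55%), and both DESeq2 (2.42%) and limma (0.606%) called 3. For subiculum, edgeR called 0 of 54 (0.018%), with 4 at an unadjusted p under 0.05 (10.2%), DESeq2 called 3 (3.43%) and limma 0 (0.192%).

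Mice did not overlap for 5 genes that were higher and 4 that were lower in DG than in CA1, where 6.55% of all 15734 genes detected separated. In VIP 3 were higher and 2 lower (2.68%), in CA3 3 were higher (3.74%) and in subiculum 0 of 58 separated (0.744%). These counts include Kcnmb2, Kcnip1 and Kcng2, which entered largely through a few types, and are likewise a description. The genes higher in DG were Kcnk1, Kcna1, Kcnj4, Kcng2 and Kcnk2, and those lower included Kcnq5, Kcnma1 and Kcnn2.

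The time course in DG asked how the genes stood after a single NE visit. Kcnk1 was the one gene of the 58 that edgeR called against HC. Its level in HC mice with at least 2 DG nuclei was 4.98 and 7.86, and 2 further HC mice with a single nucleus each had 0.00 and 7.62. At 1 h the FOS+ nuclei of the 1 mouse were at 5.44 and its FOS- nuclei at 3.72. At 4 h the 2 mice were at 9.10 and 9.76, and at 5 h the 4 mice were at 5.28, 7.59, 9.07 and 9.52. Both mice at 4 h were above every HC mouse, while at 5 h the groups overlapped.

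The summed counts put the rise of Kcnk1 at 4 h at a log2 fold change of 2.44 (SE 0.38, adjusted p = 0.0035 by edgeR). It was 1.55 at 5 h (SE 0.34, adjusted p = 0.056) and 0.68 in FOS+ nuclei at 1 h (SE 0.43, adjusted p = 0.84). The call at 4 h was lost without mouse 21 (2.13, adjusted p = 0.057 by edgeR) and under limma (3.01, adjusted p = 0.11). In the second-visit groups Kcnk1 stayed within the range of the 4 h and 5 h mice, at 7.22 to 8.74 in A>A FOS+, 6.85 to 9.56 in A>A FOS-, 7.31 and 7.44 in A>C FOS+, and 8.32 and 9.07 in A>C FOS-. The gene lies at chr8:125995170-126030685 on the plus strand of GRCm38 and shares exon bases with Gm45875, an antisense gene. The sources used here do not say whether counting used strand, so reads in those bases cannot be told apart.

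**Figure D3:**
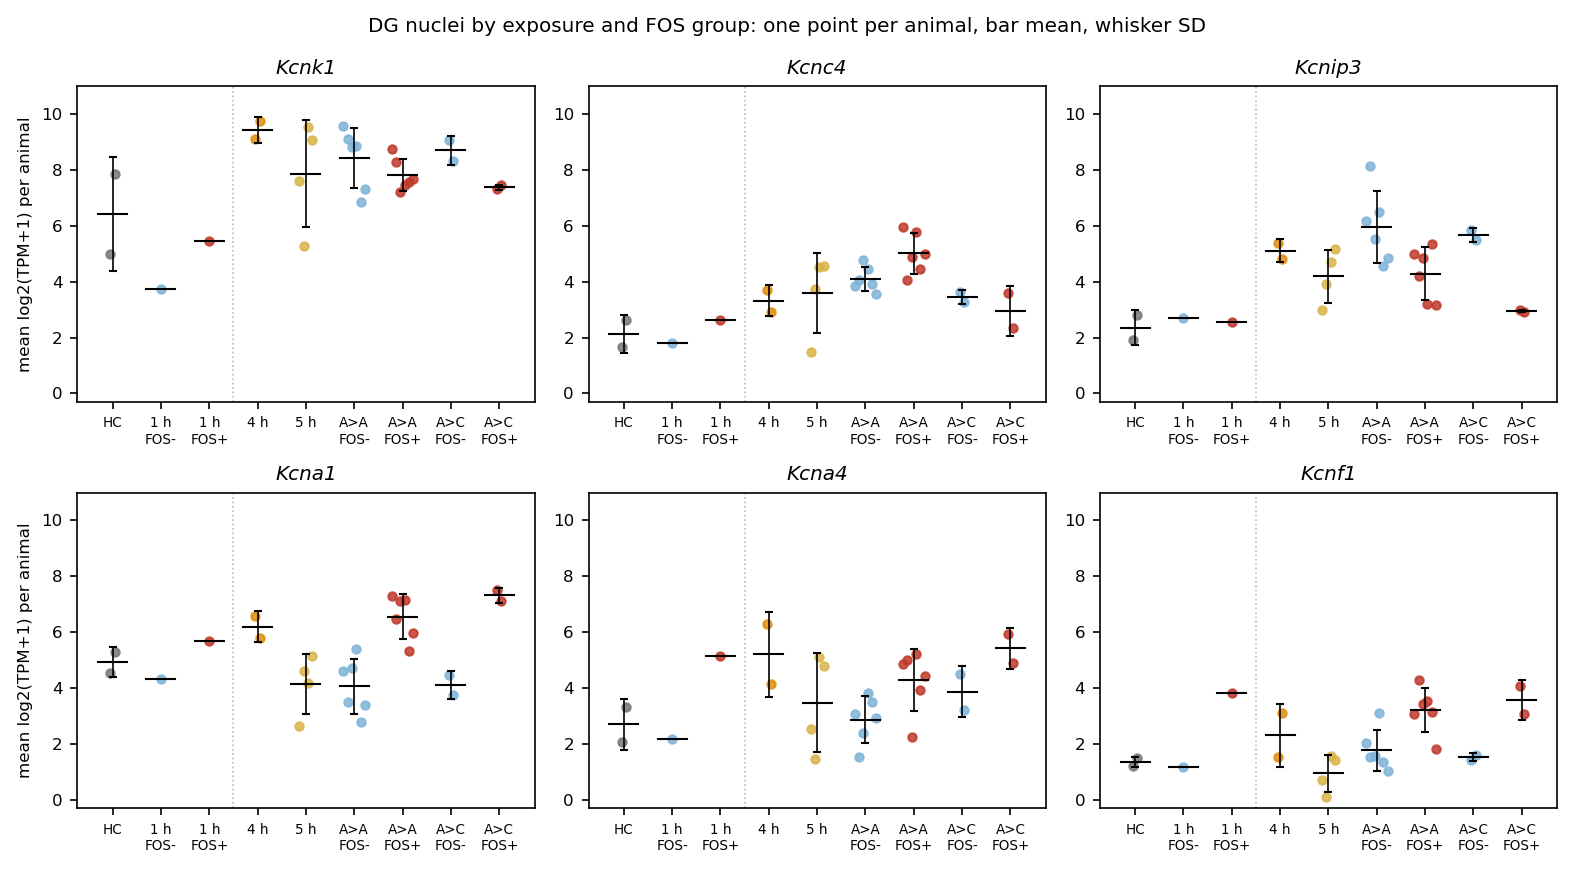
Level in DG nuclei by exposure and FOS state for 6 genes, one point per mouse with at least 2 nuclei (mean log2(TPM+1)), with the mean as a bar and the SD as a whisker, and a dotted line between the separately normalized tables. Kcnk1 reaches 9.10 and 9.76 in the 2 mice at 4 h. The mean of Kcna1 is higher in FOS+ than in FOS- nuclei after A>A, where the ranges of mice met, and after A>C.

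Kcnip3 encodes DREAM, also called calsenilin or KChIP3, a calcium sensor that binds Kv4 channels and can also repress transcription. Its level was 1.92 and 2.79 in the HC mice, 4.81 and 5.40 at 4 h, and 3.00, 3.90, 4.69 and 5.15 at 5 h, so neither later group overlapped with HC. The edgeR log2 fold changes were 2.88 at 4 h (SE 0.69, adjusted p = 0.12) and 2.75 at 5 h (SE 0.64, adjusted p = 0.091). DESeq2 called Kcnip3 at both times. In the 1 h mouse it was at 2.57 in FOS+ and 2.71 in FOS- nuclei.

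Kcna4, the A-type Kv1.4 channel, was at 2.06 and 3.34 in HC, 4.14 and 6.29 at 4 h, and 1.47 to 5.11 at 5 h. Its edgeR log2 fold change was 2.11 at 4 h (SE 0.93, adjusted p = 0.85), and 1.49 without HC mouse 6 or 3.21 without HC mouse 7. Kcnc4, the A-type Kv3.4 channel, was at 1.65 and 2.61 in HC and at 2.92 and 3.71 at 4 h, with a log2 fold change of 0.85 (SE 0.57, adjusted p = 0.87) that was 0.53 without HC mouse 6. At 5 h it was at 1.50, 3.75, 4.51 and 4.55, overlapping with HC, with a log2 fold change of 1.03 (adjusted p = 0.50 by edgeR). In A>A nuclei Kcnc4 ran from 3.56 to 5.97, above both HC mice, though in a separate table.

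Promoters are shown for Kcnk1 and Kcnip3, the genes with the smallest p at 4 h and 5 h, and for Kcnc4, whose group means were most like those of Kcnk1. RefSeq promoters of GRCm38.p6 matched 39 of the 58 genes. The 250 bases before each start were searched on both strands for letters bound by FOS and CREB family proteins. A gene was counted if any of its listed promoters matched, whereas the shares of all are of single promoters, so these are unlike measures. The AP-1 letters TGANTCA were in the promoters of 3 of the 39 genes (Kcnip3, Kcnip4 and Kcnk2), against 6.749% of 32851 promoters. The full CRE, TGACGTCA, was in 0 of 39 (1.546% of all), and its core TGACG, which lies within the full CRE, was in 8 of 39 (17.765% of all). The 3 windows are shown in lower case, 5′ to 3′ along the gene, with a match in capitals. Kcnk1 (chr8:125994852-125995101, plus strand) held no match, and Kcnc4 (chr3:107458899-107459148, minus strand) held the CRE core. Of the 3 promoters listed for Kcnip3, the window shown (chr2:127522095-127522344, minus strand) was chosen because it held an AP-1 match. A match is a run of letters and not a measured site.
Kcnk1: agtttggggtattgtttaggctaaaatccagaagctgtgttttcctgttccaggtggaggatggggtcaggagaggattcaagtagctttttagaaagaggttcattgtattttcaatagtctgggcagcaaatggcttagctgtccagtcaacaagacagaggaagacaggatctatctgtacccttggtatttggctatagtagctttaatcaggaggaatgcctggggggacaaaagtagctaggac
Kcnc4: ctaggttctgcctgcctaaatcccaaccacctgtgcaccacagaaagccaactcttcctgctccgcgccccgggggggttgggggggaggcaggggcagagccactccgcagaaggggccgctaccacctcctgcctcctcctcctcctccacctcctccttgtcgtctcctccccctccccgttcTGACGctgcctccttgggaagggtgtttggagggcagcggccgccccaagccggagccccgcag
Kcnip3: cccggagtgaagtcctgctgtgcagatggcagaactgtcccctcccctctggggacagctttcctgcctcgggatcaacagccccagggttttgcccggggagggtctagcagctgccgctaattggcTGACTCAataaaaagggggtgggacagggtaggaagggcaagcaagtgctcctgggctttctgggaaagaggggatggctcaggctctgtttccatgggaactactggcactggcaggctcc

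Other genes had lower levels at the later times by limma but were not called by edgeR. Kcnt2, a sodium-activated channel, was at 3.13 and 4.68 in HC, 0.56 and 0.84 at 4 h, and 0.39, 0.44, 0.61 and 0.68 at 5 h. Kcnb2, the delayed rectifier Kv2.2, was at 0.99 and 1.55 in HC and at or below 0.53 in every 4 h and 5 h mouse. Kcnq3 was at 3.59 and 5.02 in HC and at 1.20, 1.70, 2.85 and 3.00 at 5 h. None of these mice overlapped with HC. The limma differences were -3.20 at 4 h and -3.37 at 5 h for Kcnt2, -1.09 and -1.08 for Kcnb2, and -2.12 at 5 h for Kcnq3, each past its threshold, whereas edgeR gave an adjusted p of 0.37 for Kcnt2 and 0.47 for Kcnq3 at 5 h. Kcnab1, a beta subunit of Kv1 that speeds inactivation, also passed limma's test at both times (-3.27 and -3.15).

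Among genes near the floor, Kcnk2 at 5 h was at 0.00, 0.00, 0.09 and 0.11, against 0.46 and 1.60 in HC. Kcnn3, the SK3 channel, was listed at 0.00 in all 4 mice at 5 h and at 0.82 and 1.82 in HC. Kcna6 at 4 h was at 0.00 and 0.09 against 0.38 and 0.47 in HC, and Kcnip1 was at 0.08 and 0.38 against 0.00 and 0.05. These differences were under 2 on the log2(TPM+1) scale, and none passed edgeR's test. At 5 h DESeq2 called Kcnk2 and Kcnn3, and limma called Kcnk2 (-0.97).

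Against HC, edgeR called 1 of 58 genes at 4 h, where it called 0.246% of all 24405 genes. An unadjusted p under 0.05 was found for 6 (5.58%), DESeq2 called 3 (4.14%) and limma 5 of 50 (3.68%). At 5 h edgeR called 0 of 58 (0.262%), with 10 at an unadjusted p under 0.05 (10.3%), DESeq2 called 7 (8.14%) and limma 5 (10.3%). In FOS+ nuclei at 1 h it called 0 of 58 (0.27%), with 7 at an unadjusted p under 0.05 (5.9%), 5 by DESeq2 (7.27%) and 0 by limma (3.38%). In FOS- nuclei at 1 h it called 0 of 58 (0.0041%), with 1 at an unadjusted p under 0.05 (2.8%), 2 by DESeq2 (2.52%) and 0 by limma (0.189%). All these comparisons share the HC mice, and the 1 h mouse is assumed to vary like those of the other groups.

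Of the 58 genes, 13 were higher and 15 lower at 4 h than in HC without overlap, with 2 mice against 2, where 41.1% of all genes separated. At 5 h 3 were higher and 15 lower, where 21.4% of all genes separated. Depth differed between these mice. The median count per nucleus was 381169.5 and 350943 in mice 8 and 9 at 5 h and 1776118 and 1555742 in mice 22 and 23, and Kcnk1 was higher in the first pair (9.52 and 9.07) than in the second (7.59 and 5.28). Its part in the result was not tested. Mbp was lower at 4 h (2.71) and 5 h (2.49) than in HC (4.69), and the 3 oligodendrocyte markers together summed to 3.40, 3.42 and 7.83. The 3 DG markers summed to 12.47 at 4 h, 12.44 at 5 h and 16.73 in HC, and the 2 glutamatergic markers to 15.19, 11.51 and 16.04, with Camk2a, the more abundant, at 8.50, 6.67 and 8.99. Their part was not tested either.

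The second visit asked which genes differed between nuclei with and without FOS. All of these nuclei were ARC+. The FOS+ ones were active at the second visit, and protein staining could not tell those active at both visits from those active at the second alone. Kcna1 was the one gene that edgeR called. It encodes Kv1.1, the low-threshold channel of axons that delays and limits firing. In A>A FOS+ nuclei the 6 mice were between 5.33 and 7.30 with a median of 6.80, and in FOS- nuclei the 6 mice were between 2.79 and 5.39 with a median of 4.06. The ranges met, since FOS+ mouse 26 (5.33) lay below FOS- mouse 25 (5.39). The edgeR log2 fold change was 1.52 (SE 0.24, adjusted p = 0.023).

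Within each of the 4 A>A mice that gave both kinds of nuclei, Kcna1 was higher in the FOS+ nuclei, by 2.41 in mouse 24, 1.78 in mouse 25, 2.54 in mouse 26 and 2.56 in mouse 27 (mean 2.32 ± 0.37, SD, n = 4). Of the 58 genes, 5 were higher in all 4 of these mice (8.62%, against 7.05% of 15734 genes) and 7 lower (12.1%, against 14.6%). For Kcna1, a fit with the animal as a block gave a change of like size that did not pass (1.73, adjusted p = 0.40 by edgeR). Mice 19 and 20 have nuclei from 2 dates and may each be more than 1 animal. The call was also lost with dates kept apart (1.27, adjusted p = 0.072), with mice 24 to 27 left out (1.29, adjusted p = 0.69) and with those mice as the only A>A mice (1.67, adjusted p = 0.18). Leaving out FOS- mouse 20 or 27, or FOS+ mouse 15, 24 or 25, one at a time gave log2 fold changes from 1.39 to 1.49 and edgeR adjusted p from 0.050 to 0.064. The direction was the same in every one of these fits. The gene lies at chr6:126640397-126646384 on the minus strand of GRCm38 and shares no exon bases with another gene.

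**Figure D4:**
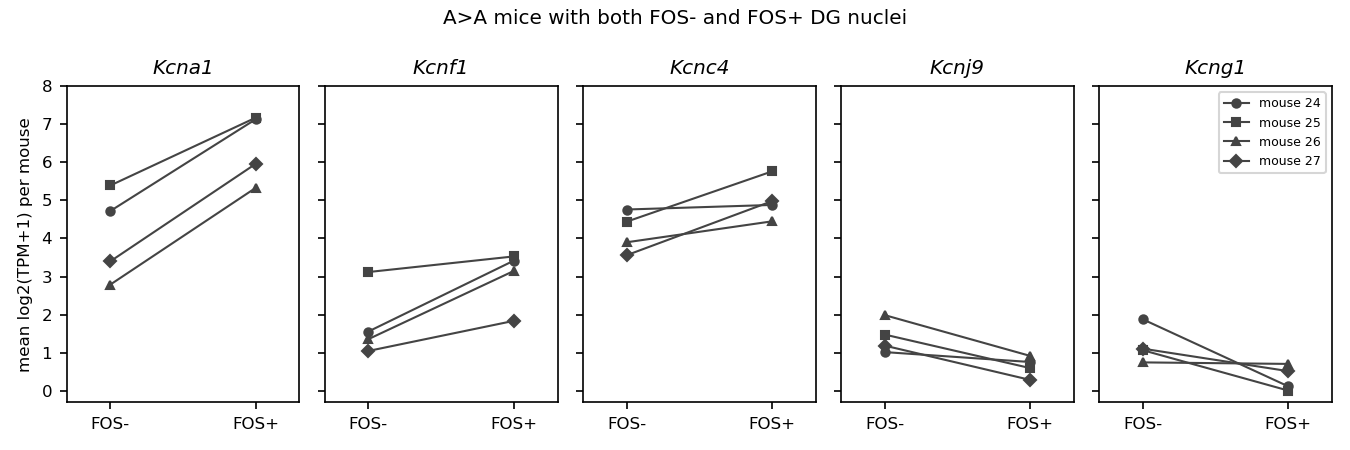
Level of 5 genes in FOS- and FOS+ nuclei of A>A mice 24 to 27, each mouse joined by a line (mean log2(TPM+1)). Kcna1 is higher in FOS+ nuclei in 4 of 4 mice, and Kcnj9 is lower in 4 of 4.

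Several genes had lower levels in FOS+ nuclei without passing edgeR's test. Kcns2, a silent subunit, was at 0.00 to 0.33 in FOS+ and at 0.48 to 1.57 in FOS- nuclei, and limma called it (-0.96). Kcnj9, the GIRK3 subunit of the inward rectifier opened by G proteins, was at 0.29 to 0.92 in FOS+ and 1.02 to 1.99 in FOS- nuclei. These 2 were the genes whose A>A mice did not overlap, where 2.15% of all genes separated. For Kcnn2 the log2 fold change was -2.96 (SE 0.85, adjusted p = 0.24 by edgeR), and DESeq2 called it. Its difference in mean level was -0.29 at 1 h, -0.74 in A>A and -0.01 in A>C. Within A>A mice 24, 25, 26 and 27 it was -1.12, -1.76, -1.37 and -1.67. On summed counts its A>A FOS effect minus that in A>C was -4.71 (unadjusted p = 0.013 by edgeR), which was not called. Gad1, which granule cells can express, averaged 3.76 in FOS+ and 3.13 in FOS- nuclei, and its part in these differences was not tested.

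In A>C nuclei Kcna1 was at 7.13 and 7.52 in the 2 FOS+ mice and at 3.75 and 4.46 in the 2 FOS- mice, a log2 fold change of 1.95 (SE 0.42, adjusted p = 0.54 by edgeR). DESeq2 called it. Kcnj9 was at 0.26 and 0.30 against 1.85 and 2.33, and both DESeq2 and limma called it. Kcnip3 was at 2.92 and 2.98 in FOS+ and 5.48 and 5.83 in FOS- nuclei, and in A>A at 3.18 to 5.35 against 4.56 to 8.12. Kcng1 (0.12 and 0.20 against 0.97 and 1.08), Kcnn3 (0.00 and 0.02 against 0.04 and 0.56) and Kcnab3 (0.00 in both against 0.10 and 0.16) also separated, close to the floor.

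For FOS+ against FOS- nuclei, edgeR called 1 of 58 genes in A>A, where it called 0.041% of all genes. An unadjusted p under 0.05 was reached by 10 (15.4%), DESeq2 called 7 (3.58%) and limma 2 (2.06%). In A>C edgeR called 0 of 58 (0% of all genes), with 3 at an unadjusted p under 0.05 (4.46%), DESeq2 called 3 (4.63%) and limma 1 (0.586%). In the 1 h mouse edgeR called 0 of 58 (0.0451%), with 5 at an unadjusted p under 0.05 (3.02%), DESeq2 called 4 (4.33%) and limma 1 (0.714%), which was Kcnj9 (-2.90). Each arm there is 1 sum from 1 mouse, so these tests take its spread from the other groups. In A>C 13 genes were higher and 20 lower without overlap, with 2 mice against 2, where 47.1% of all genes separated. The FOS+ and FOS- groups of A>C are different mice, so FOS state and mouse cannot be told apart.

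Whether FOS+ and FOS- nuclei differed in the same direction at 1 h, in A>A and in A>C was counted over all genes detected. Of the 58 genes, 16 were higher and 16 lower in FOS+ nuclei in all 3 exposures, or 55.2%, against 45.4% of 15734 genes. With a difference of more than 0.5 in each exposure, 6 were higher and 7 lower (22.4%, against 9.22% of all genes). These 13 genes were picked out by these values, which are given as a description. Markers moved with FOS in the same exposures. The 3 DG markers summed to 12.56 in FOS+ and 18.67 in FOS- nuclei at 1 h, to 13.90 and 15.17 in A>A, and to 12.83 and 16.05 in A>C. Gad1 was at 5.99 and 3.47, at 3.76 and 3.13, and at 4.36 and 3.70. The median nucleus had 5195 genes above 1 in FOS+ and 6209 in FOS- nuclei at 1 h. These medians were 5265.5 and 5057 in A>A, and 5127 and 5625 in A>C. The median count per nucleus was 1462217 and 1378220 at 1 h. It was 1667494.5 and 2133171 in A>A, and 742968.5 and 1075264 in A>C. The part of markers, detection and depth in these differences was not tested.

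The 6 higher genes were Kcna1 (1.36 at 1 h, 2.49 in A>A and 3.22 in A>C), Kcna4 (2.96, 1.41 and 1.55), the silent subunit Kcnf1 (2.65, 1.44 and 2.06), Kcnc1 (1.04, 1.25 and 2.62), the neuronal BK subunit Kcnmb4 (1.08, 1.40 and 1.43) and the GIRK2 gene Kcnj6 (1.80, 0.67 and 0.59). The lower genes included Kcnab2 (-3.33, -0.70 and -1.45), the Kv4 gene Kcnd3 (-0.76, -0.87 and -1.96) and the Kv4 partner Kcnip2 (-1.76, -0.56 and -1.30), the silent subunits Kcng1 (-1.44, -0.70 and -0.86) and Kcnv1 (-1.29, -0.53 and -0.55), and Kcnj9 (-2.90, -0.67 and -1.81). The A>A and A>C values are differences between group means, over mice that are in part (A>A) or wholly (A>C) unpaired. Within A>A mice 24, 25, 26 and 27, Kcnj6 differed by -1.73, -0.83, 1.55 and -0.86, lower in 3 of 4, and Kcnmb4 by -0.58, 3.04, -0.12 and 2.22. Of those named, Kcna1 and Kcnf1 were higher and Kcnj9, Kcnv1 and Kcng1 lower in 4 of 4, and the others were mixed. Kcnmb4 shares exon bases with Kcnmb4os1 and Kcnmb4os2, Kcnd3 with Kcnd3os, Kcnab2 with Gm16334 on the same strand, and Kcnj6 with Gm41505 and Kcnj9 with Gm36937 on the opposite strand.

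**Figure D5:**
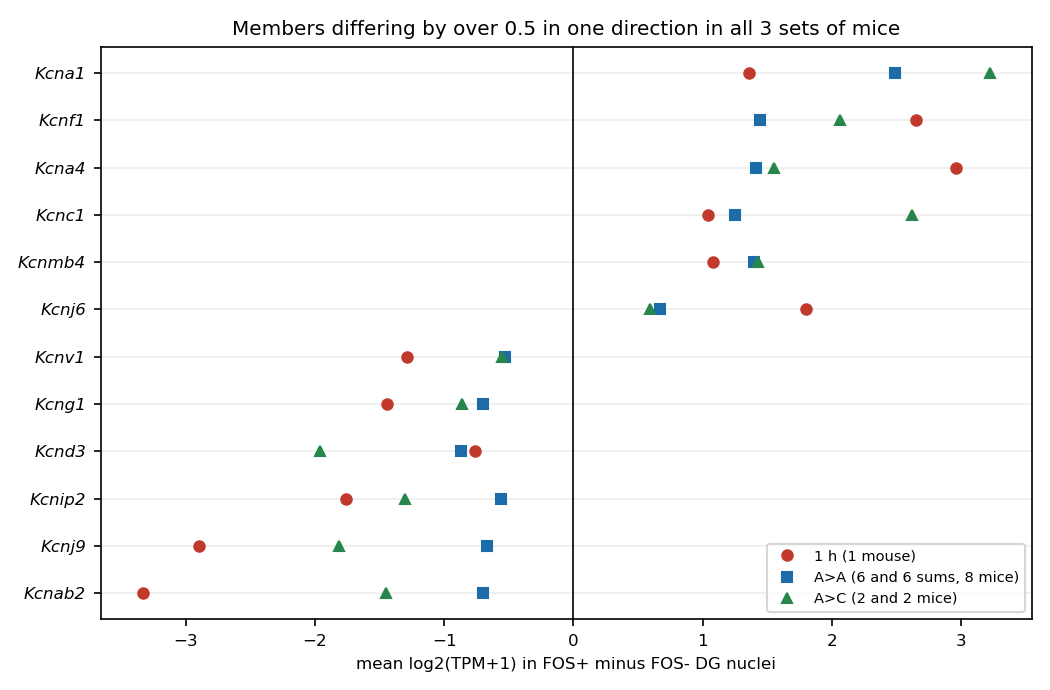
Difference in mean log2(TPM+1) between FOS+ and FOS- DG nuclei at 1 h, in A>A and in A>C for 12 of the 13 genes chosen for differing by more than 0.5 in one direction in all 3 (points right of 0 are higher in FOS+). Kcna1 lies at 1.36, 2.49 and 3.22, and Kcnj9 at -2.90, -0.67 and -1.81.

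Kcnk1 did not follow that pattern. Its difference, FOS+ minus FOS-, was 1.72 at 1 h, -0.59 in A>A and -1.32 in A>C. Within A>A mice 24, 25, 26 and 27 it was -1.60, -1.37, 0.70 and 0.37, and so mixed. On summed counts the FOS effect of Kcnk1 in A>A minus that at 1 h, where each arm is 1 sum, was -2.25. Minus that in A>C it was -0.39. Neither difference was called by edgeR. In the fit of differences between exposures, 0 of the 58 genes were called for A>A against A>C or for A>A against 1 h, and 2 had an unadjusted p under 0.05 in each, where 4.38% and 2.46% of all 24405 genes did. Over all genes edgeR called 0 in the first (0%) and 1 in the second (0.0041%).

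In CA1 the same question was put to 3 mice with both kinds of nuclei. The CA1 markers summed to 6.21 in FOS+ and 10.42 in FOS- nuclei at 1 h, and the CA3 markers to 11.96 and 6.99, and their part was not tested. Kcna1 was higher in FOS+ nuclei in 3 of 3, by 0.81, 1.07 and 1.76. Kcna4, Kcnc1, Kcnf1, Kcnk1 and Kcnj9 were also higher in 3 of 3, with mean differences of 1.83, 1.18, 1.70, 1.97 and 1.18. Kcnj6 was lower in 3 of 3 (-3.63, -1.25 and -0.66) and Kcnmb4 was mixed (-1.31, 1.44 and 2.35). In all, 13 of the 58 genes were higher in 3 of 3 CA1 mice (22.4%, against 12% of 15734 genes) and 6 lower (10.3%, against 12.1%). Kcnj9 thus had opposite signs in CA1 and DG, a contrast that was not tested. Kcnk1 was at 0.67, 2.68 and 3.86 in FOS+ and 0.13, 0.45 and 0.73 in FOS- nuclei, and DESeq2 alone called it. Kcnh3, an ELK channel, was at 0.00, 0.89 and 1.17 against 1.30, 2.52 and 2.54, and the antisense gene Kcnd3os at 0.60, 0.75 and 2.26 against 0.00 in all 3 mice.

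FOS- nuclei of CA1 were also compared between 1 h and HC. Kcnj9 was at 0.00, 0.22 and 0.53 at 1 h and at 2.34, 3.88 and 4.89 in HC. Kcnk1 was at 0.13, 0.45 and 0.73 against 0.95, 2.12 and 2.13, and Kcnb2 at 0.53, 0.88 and 0.99 against 1.56, 1.95 and 5.20. No mice overlapped for these 3 genes, and none passed edgeR's test (adjusted p = 0.94 for each), though DESeq2 called Kcnk1. The 3 oligodendrocyte markers summed to 2.84 at 1 h and 6.41 in HC, and their part was not tested.

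In CA1 edgeR called 0 of 46 genes for FOS+ against FOS- (0% of all genes), with 4 at an unadjusted p under 0.05 (4.34%), DESeq2 called 1 (1.56%) and limma 0 (0%). For FOS- at 1 h against HC it called 0 of 46 (0%), with 4 at an unadjusted p under 0.05 (5.03%), DESeq2 called 2 (1.8%) and limma 0 (0%). Mice did not overlap for 5 higher and 2 lower genes in the first comparison (10.2% of all genes) and for 4 higher and 6 lower in the second (7.8%).

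VIP groups held 27 FOS+ nuclei of 2 mice, 17 FOS- nuclei of 3 mice at 1 h and 22 HC nuclei of 3 mice. Kcna1 was lower in FOS+ nuclei in both mice that had both kinds, with differences of -0.97 and -0.87. Over the 58 genes 12 were higher in both (20.7%, against 27.9% of all genes) and 13 lower (22.4%, against 19.2%). The 3 VIP markers summed to 19.78 in FOS+ and 15.68 in FOS- nuclei at 1 h, and to 17.93 in HC. For the 3 GABAergic markers the sums were 19.20, 15.35 and 17.28. The median count per nucleus was 599311 in FOS+, 344915 in FOS- and 559838 in HC nuclei. The part of markers and depth was not tested. Kcnn3 was at 0.45 and 0.53 in FOS+, at 0.00, 0.00 and 0.16 in FOS-, and at 1.16 and 2.42 in the 2 HC mice with more than 1 nucleus. DESeq2 called it in both comparisons. Kcnj9 was at 1.81 and 1.95 in FOS+, 0.00, 0.00 and 1.33 in FOS-, and 2.16 and 2.56 in HC. Kcnmb4 was at 1.10 and 1.40 in FOS+ against 1.84, 2.46 and 4.12 in FOS- nuclei, and the acid-sensitive leak channel Kcnk3 was at 0.00, 0.00 and 0.40 in FOS- at 1 h against 0.41 and 2.02 in HC.

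In VIP edgeR called 0 of 47 genes for FOS+ against FOS- (0% of all genes), with 2 at an unadjusted p under 0.05 (5.67%), DESeq2 called 2 (2.91%) and limma 0 of 50 (0%). For FOS- at 1 h against HC it called 0 of 47 (0%), with 1 at an unadjusted p under 0.05 (4.97%), DESeq2 called 2 (2.63%) and limma 0 (0%). Mice did not overlap for 5 higher and 4 lower genes in the first (17.8%) and for 4 higher and 5 lower in the second (15.5%).

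The median log2 fold change of the genes in edgeR is given beside that of all genes tested. It was 0.13 for DG against CA1 (-0.05 over all genes), -0.16 for VIP against CA1 (-0.10), -0.30 for CA3 (-0.13) and 0.19 for subiculum (-0.07). In DG it was 0.39 for FOS+ against FOS- at 1 h (0.00), 0.54 and 0.27 for FOS+ and FOS- at 1 h against HC (0.00 in both), 0.48 at 4 h (0.23), 0.60 at 5 h (0.00), -0.08 in A>A (-0.02) and 0.02 in A>C (0.00). For FOS+ against FOS- and for FOS- against HC it was 0.35 (-0.01) and -0.43 (0.00) in CA1, and 0.10 (0.06) and -0.25 (0.00) in VIP.

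The pattern of group means was compared between genes over 25 groups of cell type, exposure and FOS state, as a description of points that share mice, libraries and tables. Kcnc4 was most like Kcnk1 (r = 0.83), then Kcnj4 (0.80) and Kcnj2 (0.74). Within the 9 DG groups alone those values were 0.69, 0.55 and 0.33. Kcnk1 was next most like Kcna1 (0.69, and 0.12 within DG) and Kcnj4 (0.68, and 0.57 within DG). Kcna4 was most like Kcna1 (0.67, and 0.78 within DG), Kcnd2 (0.67, and -0.18) and Kcnj4 (0.62, and 0.83). Kcnj2 and Kcnj4 encode the strong inward rectifiers Kir2.1 and Kir2.3, and Kcnd2 the Kv4.2 channel of dendrites. Kcnj2 was at 2.78 in the FOS+ and 0.06 in the FOS- nuclei of the 1 h mouse.

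A list of 18 partners of these channels outside the Kcn symbols was followed beside them. It held the Kv4 partners Dpp6 and Dpp10, the Kv2 partner Amigo1 and the sulfonylurea receptors Abcc8 and Abcc9. Also on it were the axonal partners Cntnap2, Cntn2, Lgi1, Adam22 and Ank3. The BK gamma subunits Lrrc26, Lrrc38, Lrrc52 and Lrrc55 and 4 HCN channels of the hyperpolarization-activated current completed it. In the type fit 14 of the 18 were tested and edgeR called 0, with 6 at an unadjusted p under 0.05 in DG against CA1 (8.16% of all genes). In DG 15 were tested and 0 were called in any comparison, with 3 at an unadjusted p under 0.05 in A>A (15.4% of all genes) and 3 at 5 h (10.3%). Cntnap2 averaged 0.57 in DG against 5.57 in CA1 and 6.73 in VIP. Lgi1 averaged 7.80 in DG against 4.71 in CA1, and Dpp6 6.59 in both.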

How the data were processed

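Counts and TPM values were deposited by the authors for 912 single-nucleus Smart-seq2 libraries. Per the labels and the study's methods, reads were trimmed and quantified with RSEM over Bowtie against the mouse genome mm10 with an Ensembl annotation whose release is not given in the sources used here. The deposited expected counts were whole numbers, so rounding changed nothing, and the deposited log2 values are log2(TPM+1). Strand use is not given in the sources used here. The table of HC and 1 h nuclei (360) and that of the later exposures (552) were normalized separately. Genes with a missing value in any nucleus (30 in the count tables and 23 in the log2 tables) were left out.

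Nuclei were kept with at least 4000 genes above 1 and 100000 aligned reads (818). HC and 1 h FOS- nuclei with Arc above 2.5 on the log2 scale (35) were dropped, leaving 783. No doublet caller was run, since each well held 1 sorted nucleus. A nucleus is not a replicate. Counts were summed per mouse and group over at least 2 nuclei, with a mouse taken as exposure and mouse number. Sums were tested with edgeR 4.0.16 (R 4.3.3, TMM, filterByExpr, quasi-likelihood F test), with Benjamini-Hochberg adjustment over all genes tested and a threshold of 0.05. DESeq2 1.42.0 on the same sums and limma 3.58.1 on each mouse's average log2(TPM+1) were alternatives, with others listed in the closing section. Cell types were fitted over FOS- HC and 1 h nuclei with an exposure term, and DG, CA1 and VIP groups each in a fit of their own. A fold change against a group at 0 depends on the prior count and is not printed. The labels do not settle whether a number used on 2 dates within an exposure (4 numbers, with ages that do not follow the dates) is 1 animal, so that there are 29 mice by number and 33 by number and date. Pairing rests on the mouse number in the labels, and same-numbered sums deviated together with correlations of 0.08 or less.

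The genes and lists were chosen with earlier results of these data known. Named genes were Kcna4, Kcnc4 and Kcnk1 with the 3 genes of most similar group means to each, every gene past the threshold, per comparison the 3 with the largest fold change among genes whose mice did not overlap, the 2 most abundant of each subfamily, and those nearest the 5% limit. Others were named after their values were seen. Values of a few genes are not reported here, though the counts of genes called, separated or of one direction include them. Gene positions are from GENCODE vM21 on GRCm38, in which 58 of 58 genes matched and 27 share exon bases with another gene. The test code was tested on simulated data.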

Additional observations from a re-analysis of the deposited data

Results flagged for a closer look

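Each of 252 pairs of a gene and a group of 4 to 10 mice was searched for a mouse far from the others, and 34 pairs had one. For normally distributed values about 1 in 20 would pass the limit used. These levels are often at 0.00, and where every other mouse is at 0.00 any level above it passes, as for Kcnk10 at 5 h. The number of pairs therefore cannot be set against that rate. Levels are means of log2(TPM+1) per mouse. Several mice recurred. In DG nuclei at 5 h, mouse 8 was the highest for the BK channel Kcnma1 (5.36, next 2.87), the Kv4 partner Kcnip4 (3.69, next 1.79), Kcnk10 (0.57), Kcnmb2 (0.43) and Kcnc2 (0.19), while mouse 22 was the lowest for the GIRK1 gene Kcnj3 (1.56, next 3.78) and for Kcng1 (0.00). In A>A, mouse 24 was the highest for Kcna6 in FOS- nuclei (0.88), for Kcnc2 in FOS- (0.43) and FOS+ nuclei (0.39), and for Kcnab3 (0.82) and Kcnip1 (0.48) in FOS+ nuclei. In A>A FOS- nuclei, mouse 25 was the highest for Kcnip1 (1.20) and the lowest for Kcnh1 (0.00), and mouse 20 the lowest for Kcnj2 (0.54).

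In CA1, HC mouse 8 was the highest for Kcnb2 (5.20, next 1.95), Kcnab3 (2.34) and Kcnq1ot1 (5.95), HC mouse 4 for Kcnd3os (2.14), HC mouse 3 for Kcnk2 (0.05), and 1 h mouse 10 for Kcnj3 (6.67, next 4.03) and Kcnip1 (1.35). In subiculum, 1 h mouse 4 was the highest for the silent subunit Kcnf1 (7.04, next 2.42) and Kcnmb4os2 (0.58) and the lowest for Kcnb2 (0.27). There 1 h mouse 10 was the highest for Kcnk2 (1.36), 1 h mouse 2 for Kcnk3 (2.56), and HC mouse 8 for Kcnip1 (1.33) and Kcnk10 (1.27). In VIP, 1 h mouse 4 was the highest for Kcnc4 (1.50), 1 h mouse 2 for Kcng2 (0.33), HC mouse 5 for Kcnk3 (2.02) and HC mouse 4 for Kcnv1 (0.80), and 1 h mouse 5 was the lowest for Kcnh7 (0.48).

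Small labelled types that entered no comparison, the Pvalb and Ivy interneurons and Th (thalamus), had levels above all 5 compared types for some genes. Kcnc2 averaged 7.55 over 8 Pvalb nuclei and 8.06 over 7 Th nuclei, and Kcnh7 averaged 6.45 over 12 Ivy nuclei. These differences were not tested.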

How the results depend on the processing

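The counts of genes called by edgeR changed most with the tool. DESeq2 called 5 for DG, 6 for VIP, 3 for CA3 and 3 for subiculum against CA1. In DG it called 4 for FOS+ against FOS- at 1 h, 5 and 2 for FOS+ and FOS- at 1 h against HC, 3 at 4 h, 7 at 5 h, 7 in A>A and 3 in A>C. It called 1 and 2 in the CA1 comparisons and 2 in each VIP comparison. The limma test called 2 for DG, 7 for VIP and 3 for CA3 against CA1, 1 for FOS at 1 h, 5 at 4 h, 5 at 5 h, 2 in A>A and 1 in A>C. The cause of these differences was not tested. The A>A count was 0 with dates kept apart, with the replicate block, with mice 24 to 27 left out and with those mice alone. Fits with the block called 0 in each of the 7 comparisons they were run for, of which VIP against CA1 was added after seeing the data, and changed no other call there. DESeq2's size factors in edgeR, no low-count filter, sums of at least 5 nuclei, FOS- nuclei kept whatever their Arc level, sorted populations in place of labels and no exposure term kept each count within 1.5 times, where they could be run. A share of 10% in place of 5% left 43 genes, and adding the read minimum left 58.

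Leaving out 1 mouse at a time gave 0 to 1 genes for VIP against CA1 (Kcnip1, without the CA1 nuclei of 1 h mouse 10), 0 to 1 for FOS- at 1 h against HC (Kcnj2, without HC mouse 6), 0 to 1 at 4 h (0 without mouse 21), 0 to 2 at 5 h (Kcnab2 and Kcnip2 without HC mouse 6, and Kcnk1 without mouse 23) and 0 to 1 in A>A (0 without FOS- mouse 20 or 27 or FOS+ mouse 15, 24 or 25). It gave 0 to 0 in the other comparisons, and could not be run for FOS at 1 h in DG, which rests on 1 mouse. Kcnk1 at 5 h passed under DESeq2 (1.38, adjusted p = 0.0021) and in edgeR without mouse 23 (1.66, adjusted p = 0.046). Fold changes of Kcnk1, Kcna4 and Kcnc4 at 4 h and 5 h and of Kcna1 in A>A, the ones recomputed under alternatives, kept their direction in each. Without HC mouse 6 or 7, Kcna4 was at 1.49 or 3.21 at 4 h and 0.34 or 2.06 at 5 h, and Kcnc4 without mouse 6 was at 0.53 at 4 h. HC has 2 DG mice of 18 and 5 nuclei and the 1 h groups 1 mouse. How far this limits what these fits can call is not reported here.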

Other observations

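The Pvalb, Ivy and Th (thalamus) labels, each with too few nuclei for a comparison, are described here by means of log2(TPM+1) over nuclei. The 8 Pvalb nuclei came from 4 mice and had both fast Kv3 genes, with Kcnc2 at 5.50 to 8.80 in single nuclei and a Kcnc1 mean of 7.01. The BK subunit Kcnmb2 averaged 4.66 there, the sodium-activated channel Kcnt1 4.01 and Kcna6 3.32, while Kcnip4 averaged 1.13. The 12 Ivy nuclei from 5 mice had Kcnc1 at 6.38, Kcnmb2 at 4.08 and the Kv4 partner Kcnip1 at 4.03. In the 5 Th nuclei of HC, GABAergic markers summed to 0.36. Slc17a6, a vesicular glutamate transporter on the list of subiculum markers, was at 6.53. The 2 glutamatergic markers summed to 7.73 there, against 6.55 in VIP and 14.80 to 16.75 in the other types compared. The 3 VIP markers summed to 14.57 (Cck 8.95), against 16.58 in VIP, and Prox1 was at 4.38. The 7 Th nuclei from 2 mice had Kcnc2 at 6.74 to 9.10 in single nuclei, Kcnip4 at 5.85, Kcnj9 at 4.00, the SK3 gene Kcnn3 at 3.46 and Kcnab3 at 2.23, and Kcnip1 and Kcna6 were listed at 0.00 in all of them. Kcnc2 was among the genes used to assign labels.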
